A study of Rattus norvegicus with 12 samples.

Results

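The miR-15, miR-16 and miR-195 family was followed here in the rat medial entorhinal cortex (MEC) through 5 microRNAs (miRNAs), miR-15a, miR-15b, miR-16, miR-195 and miR-497. The members were taken by name from a TaqMan low density array, a card that measures each miRNA by quantitative PCR in a well of its own. All 5 were among the 375 miRNA assays of the card, and all 5 were among the 222 assays that were determined often enough to be tested. The study compared 5 samples of stellate cells, neurons of layer II whose axons reach the hippocampal dentate gyrus, with 5 samples of non-stellate cells and added 2 samples of dissected MEC tissue. All samples came from Long Evans rats. For the sorted samples the fluorescent dye DiO was injected into the dentate gyrus of both hemispheres on postnatal day 2, and the MEC was dissociated and sorted on day 4 or 5. Stellate samples held the DiO positive cells. Non-stellate samples held the DiO negative cells of the same dissections, which comprise every other sorted cell of the MEC and may include stellate cells that the dye did not reach. Tissue samples came from day 23, were not injected with dye, dissociated or sorted, and were extracted with another kit (mirVana by the labels, Norgen by the methods of the study). Age, sorting and extraction therefore cannot be told apart in any difference between tissue and sorted cells.

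Members of this family share the seed, the short stretch near the 5′ end that pairs with target messenger RNAs. They are best known for restraining the cell cycle and survival through targets such as cyclins, Cdk6 and Bcl2, and they are found in most tissues, the brain included. Their genes lie in pairs that are transcribed together, miR-15a with a copy of miR-16, miR-15b with another copy of miR-16, and miR-195 with miR-497. Mature miR-16 can therefore come from more than 1 gene, and its level is the sum over them.

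The sequences below show what the members have in common and where they part. They are the RefSeq mature sequences of the rat, 5′ to 3′, with the seed (bases 2 to 8) in capitals. A sequence of miR-15a was not used here. The last pair is shown because miR-322 carries the same seed and miR-503, which lies next to miR-322, does not.
miR-15b: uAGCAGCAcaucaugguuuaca
miR-16: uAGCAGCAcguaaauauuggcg
miR-195: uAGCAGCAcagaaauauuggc
miR-497: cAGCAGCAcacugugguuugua
miR-322: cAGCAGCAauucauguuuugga
miR-503: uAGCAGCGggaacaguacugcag

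The seed AGCAGCA was carried by 5 of 693 distinct mature names in the RefSeq table, namely miR-15b, miR-16, miR-195, miR-322 and miR-497. No entry there was matched to miR-15a, so its absence from this list says nothing about its seed. The only miR-16 gene held there is the one beside miR-15b. After the seed, miR-16 and miR-195 were look-alikes, identical at 11 of 13 positions. Counted from the 5′ end, they differed by G10A and U11G. The next closest of the members shown were miR-15b and miR-497, identical at 9 of 14 positions after the seed. In contrast, miR-15b and miR-16, which lie side by side in the genome, were identical there at 6 of 14 positions. For miR-195 and miR-497, also side by side, it was 5 of 13. Whether the assays of miR-16 and miR-195 tell these sequences apart was not tested.

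In build GRCr8, mature miR-15b lies at chr2:155555197-155555218 and mature miR-16 at chr2:155555343-155555364, both on the plus strand. Their hairpins are 51 bases apart, inside the interval of Smc4 (chr2:155550262-155578695, plus strand), a protein coding gene for a condensin subunit. Mature miR-497 lies at chr10:55450172-55450193 and mature miR-195 at chr10:55450509-55450529, both on the plus strand, with 255 bases between the hairpins and no gene of the table around them. The deposited tables identify assays by name only, so these positions come from RefSeq.

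A raw level is given as Ct, the PCR cycle at which a well crosses the detection threshold. Ct is a log2 scale that falls as abundance rises, and a well with no signal is entered as 40. The 12 samples had 203 to 302 determined miRNA assays, with 234 to 260 in stellate, 203 to 241 in non-stellate and 292 to 302 in tissue samples. The 5 miRNAs of the neuron list were all determined in every sample. As every group held them, their detection does not show the neuronal identity of any group. Every well of a member was determined, with Ct values from 21.47 to 30.82. Each member had a single well per sample, so the precision of a value is known only from the 4 wells of the small nuclear RNA U6. Their SD, pooled over the 12 samples, was 0.366 cycles, and by sample it ran from 0.031 in tissue sample 1 to 0.817 in non-stellate sample 3. Mean U6 Ct was 15.59 to 20.23, earlier than any member, so the precision at the Ct of the members was not measured. A description field calls non-stellate samples 3 and 5 labeled, against their title, source and fluorescence, and they were kept as non-stellate. The tissue samples differed from each other with an SD of 0.389 cycles over 230 assays under Ct 30. The U6 well SD pooled over all 12 samples gives 0.518 cycles for a pair of wells. The tissue samples had tighter U6 wells of their own, with an SD of 0.031 and 0.286 cycles, so they were not shown to differ by less than well noise. They are labeled as biological replicates and were counted as 2, and results that rest on them are also given with their mean counted as 1 sample.

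The highest signal of the family was that of miR-16. Its Ct was 24.67, 25.91, 27.75, 26.23 and 24.94 in stellate samples 1 to 5, 25.02, 25.73, 27.45, 25.50 and 27.31 in non-stellate samples 1 to 5, and 21.47 and 21.60 in tissue. The sorted groups overlapped, and both tissue samples lay below every sorted sample. For its neighbor miR-15b, Ct was 27.88, 27.32, 28.72, 26.98 and 26.83 in stellate, 27.32, 27.41, 28.46, 27.22 and 29.37 in non-stellate, and 24.97 and 24.90 in tissue samples. Again tissue was lowest, by less than for miR-16.

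For miR-15a, Ct was 30.47, 30.05, 30.67, 30.64 and 28.30 in stellate, 29.64, 29.53, 30.47, 29.46 and 30.82 in non-stellate, and 25.30 and 25.28 in tissue samples. Of the 5 members it gave the latest signal in all 12 samples, and stellate sample 5 was the earliest of the sorted samples.

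The clustered pair of miR-195 and miR-497 moved alike among sorted samples and apart in tissue. For miR-195, Ct was 29.97, 28.37, 29.41, 28.89 and 27.15 in stellate, 28.81, 28.38, 29.38, 28.28 and 30.47 in non-stellate, and 22.99 and 22.96 in tissue samples. For miR-497, Ct was 29.46, 27.81, 29.09, 28.28 and 27.50 in stellate, 28.81, 28.26, 29.03, 28.47 and 30.49 in non-stellate, and 25.08 and 25.23 in tissue samples. In the sorted samples the pair stayed within 1 cycle of each other, whereas in tissue miR-195 crossed the threshold before miR-497 by more than 2 cycles. In all 10 sorted samples miR-16 had the lowest Ct and miR-15b the next, while in both tissue samples miR-195 took the place behind miR-16. Assays differ in efficiency, so this order is one of signals and not of molecules.

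Raw Ct also carries the amount of RNA in a reaction, and 2 scales were used to remove it. The scale of the study subtracts, in each sample, the average Ct of its 4 U6 wells. The other subtracts the median Ct of the 176 miRNA assays determined in all samples. The choice matters here because Ct in tissue minus Ct in sorted cells was -2.31 cycles for U6 and -5.30 cycles for the median assay. For the other reference RNAs this difference was -1.55 for U87, -1.91 for snoRNA135, -2.08 for snoRNA202 and -5.81 for Y1. A log2 difference below is minus the difference in scaled Ct, so that a positive value means more of the miRNA. In pools of cells and in tissue, fewer cells with a miRNA and less of it per cell cannot be told apart.

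**Figure D1:**
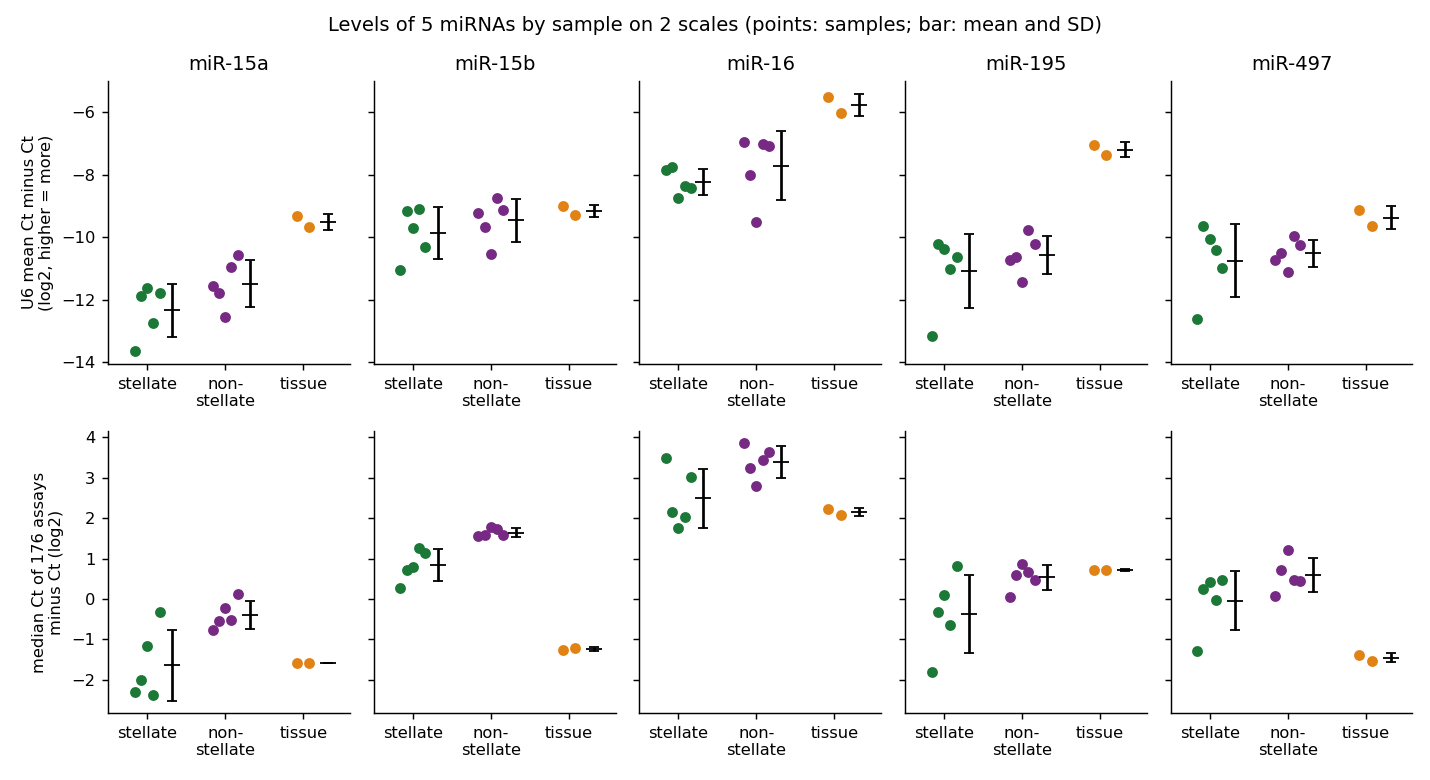
Levels of the 5 members in each sample, as U6 mean Ct minus Ct (top row) and as the median Ct of 176 assays minus Ct (bottom row), both log2 with higher values for more miRNA. Points are samples in order of their replicate number and bars are the mean and SD (n = 5, 5 and 2). Tissue lies above all sorted samples for miR-15a, miR-16, miR-195 and miR-497 on the upper scale, and below all of them for miR-15b and miR-497 on the lower scale.

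The first comparison asked whether stellate cells differ from the other cells of the MEC in these miRNAs. No member passed the test, and the estimates of all 5 were lower in stellate cells. The mean U6-scaled Ct of miR-15a was 12.3 ± 0.85 in stellate and 11.5 ± 0.76 in non-stellate samples (SD, n = 5 each), a log2 fold change of -0.86 ± 0.57 (SE). The log2 fold changes of the others were -0.41 ± 0.56 for miR-15b, -0.51 ± 0.58 for miR-16, -0.51 ± 0.63 for miR-195 and -0.23 ± 0.60 for miR-497. Adjusted p-values by limma ran from 0.682 for miR-15a to 0.935 for miR-497. The groups of all 5 members overlapped, and exact two-sided permutation p-values of 5 against 5 samples ran from 0.111 to 0.778, where the smallest possible is 0.00794. Of the 222 tested assays, 0 passed in limma, which is 0 percent in either direction, and 16 (7.21%) had an unadjusted p under 0.05, none of them a member. A log2 fold change below 0 was found for 26.6% of tested assays and for all 5 members, whose median of -0.51 stands beside 0.46 for all tested assays. Without stellate sample 1, the log2 fold change of miR-195 was 0.0060 and that of miR-497 was 0.24, so the direction of both on this scale rested on 1 sample. The same omission gave -0.53 for miR-15a and -0.11 for miR-15b. Without non-stellate samples 3 and 5, whose description conflicts, it was -0.91 for miR-16 and -0.66 for miR-15b.

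On the median-centred scale the log2 fold changes of all 5 members were farther below 0 than on the U6 scale, and again none passed the adjusted threshold. The clearest separation was that of miR-15b. Its Ct relative to the median assay was -0.29, -0.73, -0.79, -1.27 and -1.13 in stellate samples 1 to 5, and -1.55, -1.58, -1.79, -1.73 and -1.58 in non-stellate samples 1 to 5. Relative to the median assay, every stellate sample thus held less miR-15b than every non-stellate sample, whereas on the U6 scale the groups overlapped. The median-centred difference of -0.80 ± 0.24 (log2, SE) reached the smallest possible permutation p (exact, 0.00794) but a limma adjusted p of only 0.327. Groups that did not overlap in this direction were found for 1.35% of tested assays. With one sorted sample left out at a time its log2 fold change stayed between -0.91 and -0.66, with limma adjusted p-values from 0.129 to 0.527.

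For miR-15a, the log2 fold change on this scale was -1.25 ± 0.42 (SE), with a limma adjusted p of 0.343 and an exact permutation p of 0.0317. For miR-16 it was -0.91 ± 0.38, with a limma adjusted p of 0.350 and an exact permutation p of 0.0635. After median centring both were lower in the stellate sample of all 5 same-numbered pairs. With U6 scaling, miR-15a was higher in 1 pair and miR-16 in 2. The stellate and non-stellate samples overlapped for both on either scale. For the clustered pair the median-centred log2 fold change was -0.91 ± 0.45 for miR-195 and -0.63 ± 0.38 for miR-497. Each was lower in stellate cells in 4 of 5 pairs on that scale. The share of all tested assays with such pair counts was not determined. An unadjusted limma p under 0.05 was reached by 3 of the 5 members, all lower in stellate cells, and by 6.76% of tested assays in that direction. Median centring left the median of all tested assays at 0.07. With snoRNA202 as the only reference, the direction of 4 members turned, to 0.38 for miR-15b, 0.27 for miR-16 and miR-195 and 0.55 for miR-497.

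**Figure D2:**
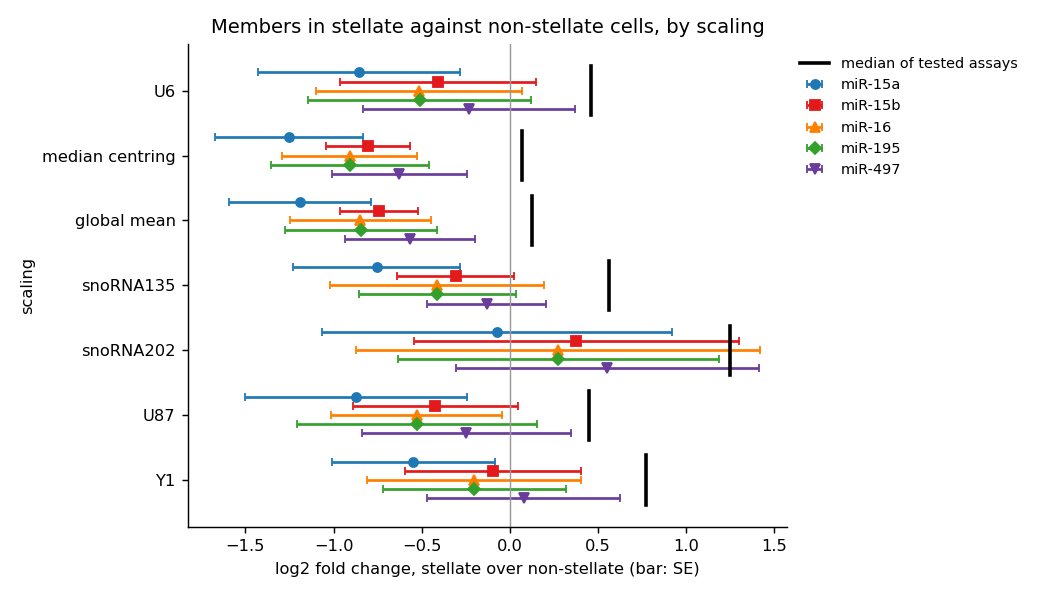
Log2 fold change of each member in stellate over non-stellate cells (x axis, bars are the limma SE, n = 5 and 5) under 7 scalings (y axis). The black line in each row is the median of all tested assays. A scaling moves all assays alike, so the distance of the members to the median is the same in every row by construction, while their side of 0 depends on the scaling for all but miR-15a.

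The relative miRNAs outside the member list gave the following values. For miR-322, which has the same seed, Ct relative to the median assay was 3.65, 3.07, 2.38, 1.35 and 1.17 in stellate and 0.06, 0.99, -0.02, 0.35 and -0.46 in non-stellate samples. The groups did not overlap, and its log2 fold change of -2.14 ± 0.51 (SE) had a limma adjusted p of 0.132 and an exact permutation p of 0.00794. On the U6 scale it was -1.74 ± 0.68, with a limma adjusted p of 0.587. For miR-503, whose seed differs at its last base, the values were -0.65 ± 0.49 after median centring and -0.25 ± 0.70 on the U6 scale.

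The second comparison set tissue of day 23 against the sorted cells of day 4 or 5. On the U6 scale, miR-195, miR-15a and miR-16 were higher in tissue, whereas miR-15b and miR-497 did not pass the test. The mean U6-scaled Ct of miR-195 was 7.20 in tissue (n = 2) against 11.1 in stellate and 10.6 in non-stellate samples, a log2 difference of 3.62 ± 0.73 (SE, limma adjusted p = 0.000888). For miR-15a the log2 difference was 2.41 ± 0.66 (limma adjusted p = 0.00615) and for miR-16 it was 2.21 ± 0.67 (limma adjusted p = 0.0114). For miR-497 it was 1.26 ± 0.69 (limma adjusted p = 0.130), and for miR-15b it was 0.51 ± 0.63 (limma adjusted p = 0.509), with tissue inside the range of sorted samples. Both tissue samples were above all sorted samples for the other 4 members, as for 68% of tested assays. The count of 3 of 5 members stands beside 62.2% of tested assays that were higher in tissue, while 1.35% were lower. The median of all tested assays on this scale was 3.02, and only miR-195 was above it. With the tissue samples counted as 1, the limma adjusted p was 0.0164 for miR-195, 0.0534 for miR-15a and 0.0784 for miR-16, so that 1 member remained past the threshold. Leaving out tissue sample 1 gave the same count of 1, with miR-195 the member that passed.

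Relative to the median assay, miR-15b and miR-497 were lower in tissue, and the other 3 members did not pass. Each scale subtracts a single number per sample, so every difference moved by the same amount and the order of the members is the same by construction. Median-centred Ct of miR-15b was 1.27 and 1.203 in tissue against -1.79 to -0.29 in the 10 sorted samples, a log2 difference of -2.48 ± 0.27 (SE, limma adjusted p = 3.0e-05). For miR-497 it was 1.38 and 1.54 in tissue against -1.22 to 1.29 in sorted samples, a log2 difference of -1.73 ± 0.44 (limma adjusted p = 0.00748). The exact two-sided permutation p of 2 against 10 samples was 0.0303 for both, the smallest possible. With the same-numbered sorted samples averaged to 5, it was 0.0952 for both, the smallest that 2 against 5 allows, and the limma adjusted p was 0.000347 for miR-15b and 0.00994 for miR-497. Tissue below all sorted samples was found for 26.1% of tested assays. The other log2 differences were -0.58 ± 0.48 for miR-15a, -0.78 ± 0.44 for miR-16 and 0.63 ± 0.52 for miR-195, none of which passed the test. The count of 2 of 5 members stands beside 25.2% of tested assays lower in tissue on this scale and 23.9% higher. With the tissue samples counted as 1, miR-15b kept a limma adjusted p of 0.00156 and that of miR-497 was 0.0649. Without tissue sample 1 or 2 the limma adjusted p of miR-497 was 0.0557 or 0.0739. In limma on the averaged sorted pairs, 3 members passed with U6 scaling, all higher, beside 152 of the 222 tested assays that were higher. With median centring 2 passed, both lower, beside 61 tested assays that were lower and 59 that were higher. Against non-stellate samples alone, miR-16 was also lower in tissue, by a log2 difference of -1.24 (limma adjusted p = 0.0490).

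**Figure D3:**
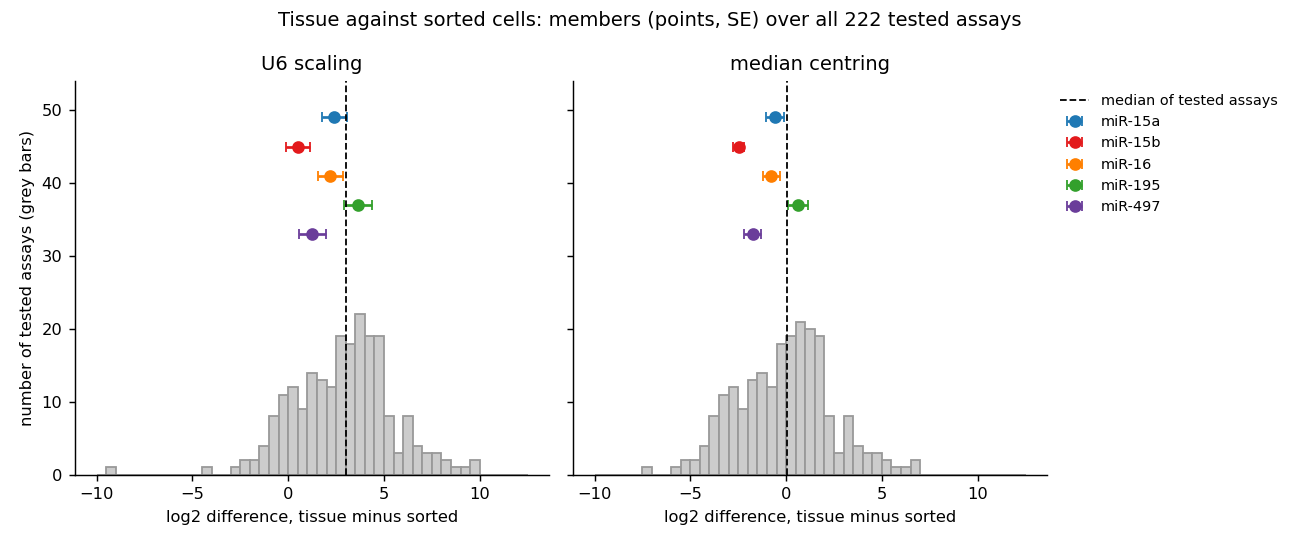
Log2 difference of tissue minus sorted cells under U6 scaling (left) and median centring (right). Grey bars count the 222 tested assays, the dashed line is their median, and colored points with SE bars are the members, whose height has no meaning. The panels differ by a shift common to all assays, so the order of the members is the same in both by construction. The median of the tested assays lies at 3.02 on the left and 0.03 on the right.

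Because the scale decides the sign of 4 of these 5 differences, the members were also compared with each other inside each sample, where any reference cancels. Within the cluster of miR-195 and miR-497, tissue and sorted samples did not overlap. Ct of miR-195 minus Ct of miR-497 was 0.52, 0.56, 0.32, 0.61 and -0.36 in stellate samples 1 to 5, 0.01, 0.12, 0.34, -0.19 and -0.02 in non-stellate samples 1 to 5, and -2.09 and -2.26 in tissue. The mean was 0.19 ± 0.33 over the 10 sorted samples (SD), and no sorted sample came near the tissue values. The ratio of miR-195 to miR-497 was thus higher in tissue by a log2 difference of 2.37, or 5.16-fold. In limma fits that took one of the pair as the reference for all assays, the adjusted p was 0.000318 with miR-497 and 0.000538 with miR-195 as reference, and 0.0109 and 0.0155 with the tissue samples counted as 1.

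A like difference was found for the cluster of miR-15b and miR-16. Ct of miR-15b minus Ct of miR-16 was 3.22, 1.41, 0.97, 0.76 and 1.90 in stellate, 2.30, 1.68, 1.01, 1.72 and 2.06 in non-stellate, and 3.50 and 3.29 in tissue samples. Tissue was above every sorted sample, though stellate sample 1 was close to it. The ratio of miR-16 to miR-15b was higher in tissue by a log2 difference of 1.70, or 3.24-fold, with limma adjusted p-values of 0.0342 and 0.0183 with either as reference. Counting the tissue samples as 1 gave 0.172 and 0.0979, and the difference was then not past the threshold.

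Across clusters, the widest shift was between miR-195 and miR-15b. Ct of miR-15b minus Ct of miR-195 ran from -2.09 to -0.31 in sorted samples and was 1.98 and 1.93 in tissue, a change in the ratio of miR-195 to miR-15b by a log2 difference of 3.11, or 8.66-fold. Its limma adjusted p-values were 0.000497 and 7.6e-05, and 0.0135 and 0.00234 with the tissue samples counted as 1. The look-alikes miR-16 and miR-195 gave a smaller difference. Ct of miR-16 minus Ct of miR-195 was -1.52 and -1.36 in tissue and -5.31 to -1.66 in sorted samples, a log2 difference of 1.42 in the ratio of miR-195 to miR-16 that did not pass (limma adjusted p = 0.197 and 0.161). For miR-15a, the ratio to miR-15b rose by 1.90 (log2, limma adjusted p = 0.00426 and 0.0148), and the ratio to miR-195 fell by 1.22 (log2, limma adjusted p = 0.0457 and 0.0436). The latter call was lost with the tissue samples counted as 1 (limma adjusted p = 0.231 and 0.220), with the sorted pairs averaged (0.0640 with one of the 2 references), and without either tissue sample, stellate sample 2 or 3, or any 1 non-stellate sample. The former was lost with the tissue samples counted as 1 (limma adjusted p = 0.0393 and 0.122). The ratio of miR-15a to miR-16 differed by 0.20 (log2) and did not pass (limma adjusted p = 0.807 and 0.815).

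In all, 8 of the 10 member pairs did not overlap between tissue and sorted samples, beside 56.9% of the 15400 pairs of assays determined in every sample. With either member as reference, 5 of 10 pairs passed in limma. The share of all other assays that passed was 67% with miR-15b, 56.6% with miR-497, 42.1% with miR-16, 39.4% with miR-15a and 34.4% with miR-195 as reference. With 1 sample left out, 2 to 6 pairs passed, and 3 passed without non-stellate samples 3 and 5. Counting the tissue samples as 1, or leaving out either of them, left 2 pairs, miR-195 with miR-497 and miR-195 with miR-15b. Leaving out stellate sample 2 or non-stellate sample 2 or 4 left 3 pairs, these 2 and miR-15a with miR-15b. Between stellate and non-stellate cells, 0 of 10 pairs were free of overlap, beside 3.95% of all pairs, and 0 of 10 passed in limma. Of all other assays 0.905% passed there with miR-15a, 2.71% with miR-15b, 5.88% with miR-16 and 0% with miR-195 or miR-497 as reference. The smallest limma adjusted p among the 10 member pairs was 0.264, for miR-15a and miR-497.

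**Figure D4:**
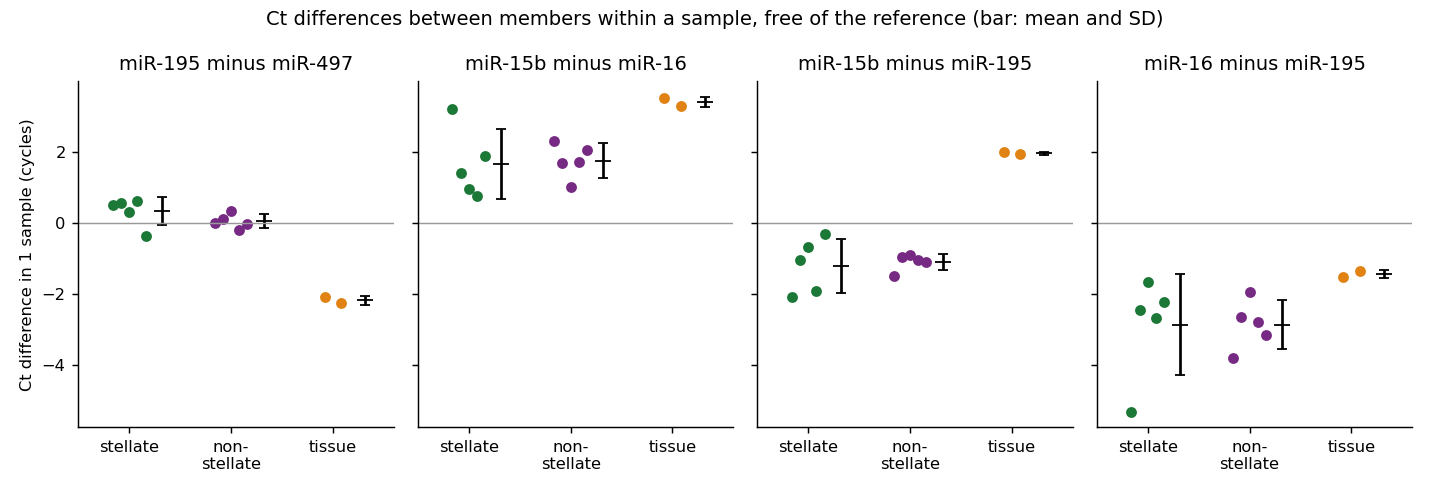
Ct difference between 2 members in the same sample (y axis, cycles) for 4 pairs, by group. Points are samples in order of their replicate number, bars are the mean and SD (n = 5, 5 and 2), and a lower value means relatively more of the first member named. Tissue does not overlap the sorted samples in any of the 4 pairs, with the widest gaps for miR-195 minus miR-497 and miR-15b minus miR-195. In the other pairs the gap is below the U6 well SD of 0.366 cycles. For miR-15b minus miR-16 it lies between 3.29 in tissue sample 2 and 3.22 in stellate sample 1. For miR-16 minus miR-195 it lies between -1.52 in tissue sample 1 and -1.66 in stellate sample 3.

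How the members varied together was described by Pearson's r of median-centred Ct over the 10 sorted samples, among the 176 assays determined in all of them. All points of such an r come from the same libraries, and stellate and non-stellate samples are pooled in it. The assay most like miR-195 was miR-497 (r = 0.928), and the assay most like miR-497 was miR-195. Spearman's rho of this pair was 0.939, and r was 0.902 after group means were removed and 0.784 without stellate sample 1. It was 0.709 without stellate samples 1 and 4, the samples farthest from the median of miR-195. In contrast, miR-16 ranked 66th for miR-15b, with r = 0.352 and rho = 0.224. That r was 0.743 without stellate sample 1, and after group means were removed it was -0.486 on this scale and 0.532 on the U6 scale. The assay most like miR-15b on this scale was miR-322, with r = 0.946, rho = 0.855 and r = 0.865 without stellate samples 1 and 2. On the U6 scale r was 0.937 for miR-195 and miR-497, 0.576 for miR-15b and miR-16, and 0.771 for miR-15b and miR-322. The nearest assay changed there for 4 members, to miR-106b for miR-15a, miR-335-5p for miR-15b, miR-100 for miR-195 and miR-325 for miR-497, and stayed miR-384-5p for miR-16.

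The next assay in likeness was miR-18a for miR-15b (r = 0.818), miR-100 for miR-195 (r = 0.918) and miR-325 for miR-497 (r = 0.915). For miR-15a the nearest assays were miR-19b (r = 0.951) and let-7b (r = 0.936). For miR-16 they were miR-384-5p (r = 0.965) and miR-142-3p (r = 0.900), and the r of miR-16 with miR-195 was 0.104. With tissue added, over 12 samples that fall into separate clusters of tissue and sorted cells, the nearest assays were miR-106b and miR-100 for miR-15a, miR-93 and miR-25 for miR-15b, let-7e and miR-9 for miR-16, miR-19b and miR-99a for miR-195, and miR-197 and miR-18a for miR-497.

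**Figure D5:**
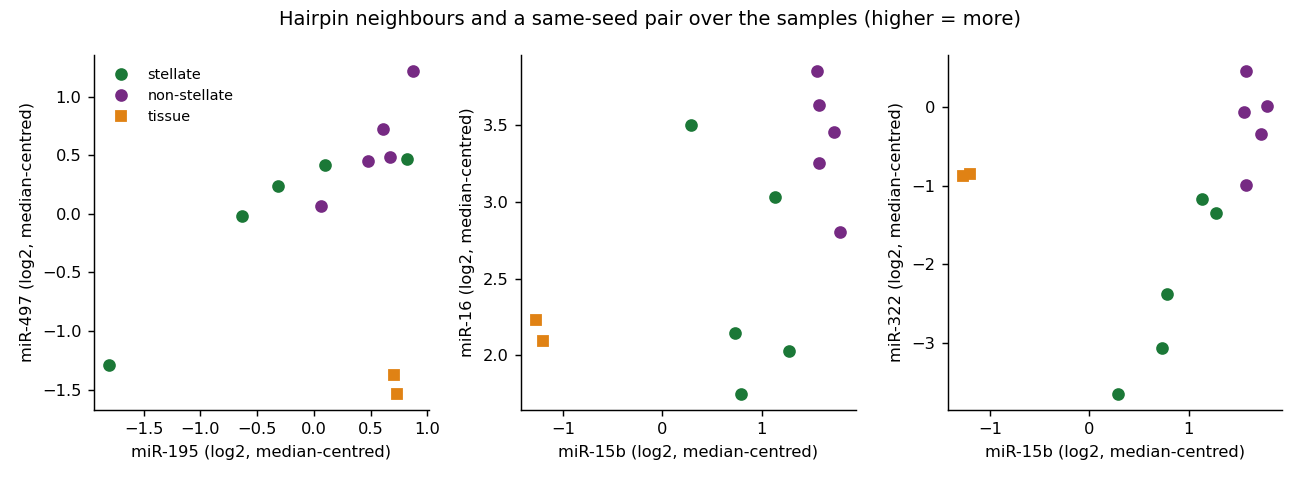
Median-centred levels (log2, higher for more miRNA) of miR-195 against miR-497, miR-15b against miR-16, and miR-15b against miR-322, with 1 point per sample. The sorted samples form a band in the panels of miR-497 and miR-322 and scatter in that of miR-16, and the tissue squares lie off the band of the sorted samples in the same panels.

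Other miRNA groups give a measure for these shifts. Of 12 miRNAs of the miR-17 cluster and its relatives, which are known from dividing cells, 9 were lower and 1 higher in tissue after median centring. Among all tested assays 25.2% were lower and 23.9% higher on that scale. The median log2 difference of the 12 was -2.62, beside 0.03 for all tested assays. The 12 ran from -4.09 to 0.99. The log2 difference of miR-15b, -2.48, lies near their median, while those of miR-497 (-1.73), miR-16 (-0.78), miR-15a (-0.58) and miR-195 (0.63) lie above it. On the U6 scale 2 of the 12 were higher and 0 lower, beside 62.2% and 1.35% of tested assays. The median of the 12 was 0.37 there, beside 3.02 for all tested assays. Of 6 neuronal miRNAs, 3 were higher in tissue after median centring, beside 23.9% of tested assays, and 6 on the U6 scale, beside 62.2%. All 3 tested members of the miR-29 family, known to rise as the brain matures, were higher in tissue on both scales, with medians of 6.03 and 9.02. Between stellate and non-stellate cells none of these passed in limma (0 assays, as above), and 11 of the 12 miRNAs of the miR-17 group were below 0 after median centring, beside 47.3% of tested assays, with a median of -0.83. Of the 6 neuronal miRNAs, 5 were above 0 on that scale, with a median of 0.67 for the 6. Only miR-9, at -0.80, was below 0, beside the same 47.3% of tested assays.

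Markers of other cells also differed between tissue and sorted samples, not all in the same direction. Red blood cells are rich in miR-16, and miR-451, which defines them, was undetermined in all 10 sorted samples and had a Ct of 26.73 and 26.85 in tissue. For miR-486, the other red cell marker on the card, raw Ct was 25.53 to 27.87 in sorted and 24.30 to 24.45 in tissue samples. Its log2 difference of tissue against sorted cells was -0.11 on the U6 scale (limma adjusted p = 0.880). After median centring it was -3.10 (limma adjusted p = 1.6e-05), lower in tissue, as were 25.2% of tested assays. The summed level, as log2 relative to U6, was -9.73 to -7.65 in stellate and -9.93 to -7.64 in non-stellate samples, where it is miR-486 alone, and -8.61 to -8.09 in tissue samples, where it holds both. For the lists that follow, 62.2% of all tested assays were higher in tissue on the U6 scale and 23.9% after median centring. All 4 vascular miRNAs were higher in tissue on the U6 scale and 2 after median centring, with summed levels of -10.2 to -5.96 in stellate, -11.0 to -8.05 in non-stellate and -3.52 to -2.99 in tissue samples. Of 5 miRNAs of white blood cells and microglia, 4 were tested and were all higher on the U6 scale and 1 after median centring, with summed levels of -9.11 to -5.22 in stellate, -10.6 to -8.24 in non-stellate and -4.37 to -4.09 in tissue samples. Both oligodendrocyte miRNAs were determined in tissue, and at most 1 of the 2 in any sorted sample. Of 4 tested miRNAs of choroid plexus and ependyma, 1 was higher and 1 lower in tissue on the U6 scale, and 1 higher and 2 lower after median centring, with summed levels of -9.30 to -6.44 in stellate, -10.4 to -7.95 in non-stellate and -5.35 to -5.29 in tissue samples. The part of these cells in the differences of the family was not tested.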

How the data were processed

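RNA of 5 stellate, 5 non-stellate and 2 tissue samples was reverse transcribed, pre-amplified and measured on a TaqMan Rodent card A by the authors. The raw table deposited by the authors holds Ct on a log2 scale with undetermined wells at 40, and the normalized table deposited by the authors, also log2, equals Ct minus the mean of the 4 U6 wells of the sample (largest deviation 7.1e-15). The authors' deposited tables of fold changes and limma results were not used. Pre-amplification and single wells limit the precision of each value, and the number of determined wells stands in for depth.

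Groups came from titles, sources and fluorescence. Assays with no more than 3 undetermined wells among the 10 sorted samples were tested (222 of 375), with undetermined wells at 40. Both comparisons used limma 3.58.1 in R 4.3.3 (lmFit, eBayes, two-sided, Benjamini-Hochberg over all tested assays, threshold 0.05) on U6-scaled Ct, for sorted cells without a block and for tissue as a contrast with the average of the stellate and non-stellate means in a fit of 12 samples. Median centring and the global mean used the 176 assays determined in all samples. Fits with each member as the reference, median-centred fits with samples left out and fits with tissue counted as 1 sample or same-numbered sorted samples averaged were added once the values were known. The median-centred setting itself, the other references, other treatments of undetermined wells, other assay filters, robust and trended moderation, and the leaving out of samples were planned. The members, lists and tests were chosen with earlier results of these data known. Named miRNAs were the members, card assays with the same seed, miR-503, the 2 assays most like each member and the lists. The limma procedure was also run on simulated data with independent noise for each assay, no error in U6, no undetermined wells and no pairs. That run does not cover these features of the real data, or effects smaller than the simulated ones. Limma p-values set a difference against the spread between these samples, moderated over all tested assays. In the tissue comparison that spread comes mostly from the 10 sorted samples.

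The labels describe labeled and unlabeled cells of 5 biological replicates, so same-numbered samples were read as pairs. Their deviations from the group means correlated at 0.0743 to 0.331 across assays, beside a mean of -0.0481 for other numbers. Such deviations sum to 0 over the 5 samples of a group, so these figures are not independent. The lowest, 0.0743 for pair 5, was exceeded by stellate sample 3 with non-stellate sample 5 (0.144) and stellate sample 5 with non-stellate sample 2 (0.116). The pairing therefore rests on the labels. Mature sequences and positions were taken from RefSeq (GRCr8) for 4 of the 5 members.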

Additional observations from a re-analysis of the deposited data

Results flagged for a closer look

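Of 10 groups of 5 samples (each member in stellate and in non-stellate cells, U6-scaled Ct), 1 held a sample far from the others. The U6-scaled Ct of miR-195 in stellate sample 1 was 13.2, while the other stellate samples lay between 10.2 and 11.01. The limit was Dixon's 95% critical value, which chance passes in about 1 in 20 groups. The same sample had the highest U6-scaled Ct of the stellate group for miR-15a (13.7), miR-15b (11.06) and miR-497 (12.6), but not for miR-16.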

How the results depend on the processing

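Between stellate and non-stellate cells, 0 members passed under every alternative run, the replicate block of the paired design included (0 with U6 scaling and 0 with median centring). Directions turned with snoRNA202 as reference for miR-15b (0.38), miR-16 (0.27), miR-195 (0.27) and miR-497 (0.55), and with Y1 for miR-497 (0.078). With samples or pairs left out, the log2 fold change ran from -0.91 to 0.0060 for miR-195 and from -0.55 to 0.24 for miR-497.

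In tissue against sorted cells, the count of members past the threshold was 5, all higher, with snoRNA135 or U87 and 1 with snoRNA202, where 158, 164 and 119 of the 222 tested assays were higher. It was 2, both lower, with median centring, the global mean or Y1, where 56, 49 and 51 of the 222 tested assays were lower. With U6 scaling the count fell below the 3 of the main fit when the tissue samples were counted as 1. With 1 sample left out it ran from 1 to 3. The direction turned with median centring, the global mean and Y1, in that order, for miR-15a (-0.58, -0.27 and -1.10), miR-15b (-2.48, -2.17 and -2.996), miR-16 (-0.78, -0.47 and -1.30) and miR-497 (-1.73, -1.42 and -2.25). For miR-195 the difference stayed above 0 but was not past the threshold, at 0.63, 0.95 and 0.12 (limma adjusted p = 0.322, 0.129 and 0.892). After median centring the count was 1 with the tissue samples counted as 1 and ran from 1 to 2 with 1 sample left out, and miR-15a turned to 0.043 against stellate samples alone. The cause of these differences was not tested. With 2 tissue samples and 1 well per assay, differences much under 1 cycle were not resolved.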
